A study of Mus musculus with 16 samples.

Results

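Connexins and pannexins are the channel proteins that let cells exchange small molecules with each other or with the fluid around them. The 7 genes described here are the connexins *Gja1*, *Gja4*, *Gja5*, *Gjb2*, *Gjb6* and *Gjc1* and the pannexin *Panx1*, of 23 connexin and pannexin genes in the annotation and 55487 genes in the count table. They were selected by name from a list drawn up with earlier results of these libraries known, including the stretch comparison of the stromal cells. The values of these 7 genes are therefore a description, and no test of them is offered as support. The list sets no threshold on a measured value.

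The libraries are bulk RNA-seq of mouse skin cells sorted by CD45, a surface protein of blood-derived cells, into an immune (CD45+) and a stromal (CD45-) fraction. Stretched skin had been put under hypobaric pressure and its cells were taken 6 h later, and the control was skin of the same area that was not stretched. Stretched and control skin in each fraction gave 4 groups of 4 libraries, numbered here as in their titles. The labels name no strain, sex or age and do not say whether libraries came from separate animals, so the spread between them may be technical.

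Connexins assemble as rings of subunits in the membrane, and rings of neighbouring cells dock to form gap junctions through which ions and small metabolites pass. Pannexins resemble them in shape but mostly act as channels to the outside, releasing ATP that nucleotide receptors on the same or nearby cells can sense. In skin, Cx43 (the product of *Gja1*) is the widespread connexin of dermal fibroblasts and epidermis, Cx26 (*Gjb2*) and Cx30 (*Gjb6*) are keratinocyte and hair follicle connexins that rise in disturbed epidermis, and Cx37 (*Gja4*), Cx40 (*Gja5*) and Cx45 (*Gjc1*) are best known from vessel walls and heart.

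The start-site windows of *Gja1*, *Gjb2* and *Gjb6* are shown because these genes had the largest fitted differences between stretched and control stromal cells. The sequences are RefSeq (GRCm38.p6), each the 250 bases upstream of the annotated start, written 5′ to 3′ on the gene's strand at chr10:56377050-56377299 (plus), chr14:57104703-57104952 (minus) and chr14:57133612-57133861 (minus). Capitals mark matches to an AP-1 motif (TGANTCA) or a GC box (GGGCGG) on either strand.
Gja1: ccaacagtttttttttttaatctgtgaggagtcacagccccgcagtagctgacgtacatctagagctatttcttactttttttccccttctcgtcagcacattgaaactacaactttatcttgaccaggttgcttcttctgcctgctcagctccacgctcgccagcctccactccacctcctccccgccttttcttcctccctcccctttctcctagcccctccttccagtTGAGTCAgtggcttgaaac
Gjb2: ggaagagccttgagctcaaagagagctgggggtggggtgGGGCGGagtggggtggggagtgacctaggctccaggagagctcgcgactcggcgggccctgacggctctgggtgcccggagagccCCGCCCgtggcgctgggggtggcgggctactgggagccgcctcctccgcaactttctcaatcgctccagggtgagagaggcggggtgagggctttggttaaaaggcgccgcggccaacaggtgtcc
Gjb6: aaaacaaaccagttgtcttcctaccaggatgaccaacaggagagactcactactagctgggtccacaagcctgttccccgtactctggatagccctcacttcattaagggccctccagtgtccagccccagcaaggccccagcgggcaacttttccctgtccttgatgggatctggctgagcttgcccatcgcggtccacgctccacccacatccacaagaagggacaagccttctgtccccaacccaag

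The *Gja1* window held 1 AP-1 match, beginning 19 bases upstream of the start and overlapping an E-box (CANNTG) that begins 23 bases upstream. The *Gjb2* window held 2 GC boxes, beginning 211 and 126 bases upstream, and was rich in G and C (69.2%, against 50% for *Gja1* and 56.8% for *Gjb6*). The *Gjb6* window held neither motif. Over windows that also include the first 50 transcribed bases, an AP-1 match was present in 7.81%, a GC box in 35.7% and an E-box in 72.3% of 32851 mouse promoters. In windows of that length, *Gja4* and *Gja5* had 1 GC box each, *Panx1* had no match to either of the marked motifs, and no TEAD (GGAATG) or TATA box (TATAAA) match occurred in any of the 6 members found in the promoter table. *Gjc1* had no entry there. A match describes letters only, and binding was not measured.

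Total counts ran from 13563586 to 20467010 per library in control and 21955174 to 26944965 in stretched stromal libraries, and from 2645421 to 6662268 in control and 7018743 to 20095580 in stretched immune libraries, so depth did not overlap between treatments within either fraction. Levels are given as CPM, read counts scaled to library depth with TMM factors. *Ptprc*, which encodes CD45, lay between 0.0644 and 3.37 CPM in the stromal and between 206 and 702 CPM in the immune libraries. The summed CPM of 12 fibroblast markers was 48513 to 60570 in control and 45025 to 66411 in stretched stromal libraries, and 1726 to 7430 in control and 2109.5 to 11117 in stretched immune libraries, with no marker at 0, so the immune libraries carried fibroblast transcripts too. Immune control 4 (5942 CPM), stromal stretched 7 (408 CPM) and stromal stretched 8 (200 CPM) had many reads on 1735 olfactory and vomeronasal receptor genes, against 17.8 to 68.7 CPM in the other libraries. Results that rest on these 3 libraries are given without them where they changed.

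*Gja1* was the most abundant of the 23 genes per transcript length in all 4 groups. Per kilobase of transcript its mean level was 173 CPM in stromal control, 365 in stromal stretched, 37.6 in immune control and 61.7 in immune stretched. *Gjc1* (16.3 CPM per kb in stromal control) and *Panx1* (8.06) followed, and their ranges in stromal control did not overlap each other or that of *Gja1*. *Gja4* (0.877), *Gjb2* (0.231), *Gjb6* (0.0987) and *Gja5* (0.0783) were low there, and within these 4 each overlapped its neighbour in the order. In stromal stretched libraries *Gjb2* (2.43 ± 2.91 CPM per kb, SD, n = 4) had a higher mean than *Gja4* (1.08 ± 0.111), again with overlapping ranges.

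**Figure D1:**
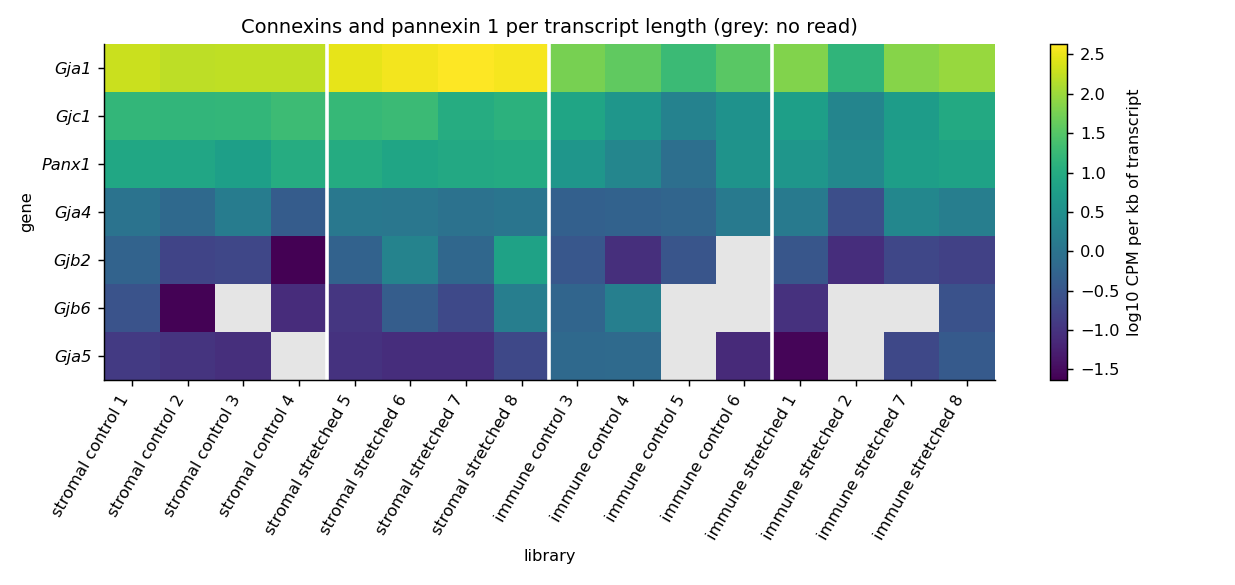
Levels of the 7 described genes (vertical, ordered by mean) in the 16 libraries (columns, white lines between groups), as log10 CPM per kilobase of transcript, with grey for no read. *Gja1* is the brightest in every library, and grey cells occur for *Gja5*, *Gjb2* and *Gjb6*.

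Stretching went with more *Gja1* in the stromal cells. *Gja1*, at chr10:56377330-56402513 on the plus strand (GRCm38), is the main gap junction gene of fibroblasts. Its CPM was 617, 507, 543 and 532 in stromal control 1 to 4 and 965, 1131, 1366 and 1177 in stromal stretched 5 to 8. The 4 stretched libraries all lay above the 4 controls. The means were 549.8 ± 47.3 and 1159.9 ± 165 CPM (SD, n = 4), and the fitted log2 fold change was 1.09 ± 0.19 (SE). In bulk samples, more cells of a type and more RNA per cell cannot be told apart.

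By edgeR's quasi-likelihood test over 16074 genes, *Gja1* was the 1 of 6 tested members past an adjusted p of 0.05, where 4.98% of all tested genes were. It was also the 1 member whose stretched and control libraries did not overlap, as was the case for 18% of tested genes. Nothing is read from these counts, since the members were chosen with this comparison known. The call was lost with all 16 libraries in 1 fit, with offsets for transcript length and GC content, without the 3 libraries with many receptor reads (log2 fold change 0.92 ± 0.20) and in 6 of the 8 fits that left out 1 library. The fold change stayed between 0.82 and 1.18 in these fits. Of those 8 fits, 5 called no gene at all, and the number called ranged up to 1589.

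The fibroblast marker sums of the stromal groups overlapped, and *Gja1* divided by them did not: it was 8.37 to 12.7 per 1000 fibroblast-marker CPM in control and 14.5 to 26.1 in stretched libraries. The fibroblast markers went both ways. *Col1a1*, *Col1a2*, *Col3a1* (means of 8924 CPM in control and 12628 in stretched), *Col6a1* and *Pdgfra* (185 and 260) were higher in stretched libraries. All others were lower, such as *Dcn* (19700 and 18600), the largest, *Dpt* (1251 and 820) and *Mfap5* (1570 and 883). The summed CPM of 12 mural cell markers was higher in stretched (306 to 398) than in control stromal libraries (172 to 283), and that of 10 basal keratinocyte markers overlapped (544 to 1310 against 147 to 1326). Among the mural markers, *Pdgfrb* (means of 93.6 CPM in control and 158 in stretched) and *Des* (53.7 and 98.3) were largest and rose by the most CPM. *Rgs5* (6.13 and 5.66) and *Kcnj8* (17.7 and 15.5) were lower in stretched libraries. The others rose by fewer CPM, though the scarce *Myh11* (1.02 and 2.06) rose more in proportion. No mural marker was at 0, and 0 to 1 of the basal keratinocyte markers were. The part of fibroblast, mural cell and keratinocyte content in the *Gja1* difference was not tested, nor was that of depth.

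In the immune fraction *Gja1* was 184, 123, 60.4 and 111 CPM in control libraries 3 to 6 and 211, 46.3, 232 and 297 CPM in stretched libraries 1, 2, 7 and 8. The groups overlapped, because stretched library 2 was lower than every control. That library was unlike the rest of its group in cell content. Its 8 neutrophil markers summed to 52450 CPM, against 371 to 1077 in the other stretched and 539 to 10705 in the control immune libraries. The part of this in its low *Gja1* was not tested. The *Gja1* means were 119.6 ± 50.9 and 196 ± 106 CPM, with a log2 fold change of 0.47 ± 0.50. The immune libraries with most *Gja1* were also those with most fibroblast transcripts. *Gja1* per 1000 fibroblast-marker CPM was 24.8 to 39.9 in immune control and 21.9 to 26.7 in immune stretched libraries. The control range lay above the 8.37 to 12.7 of stromal control, and the stretched range overlapped the 14.5 to 26.1 of stromal stretched. The sum of 14 blood endothelial markers, another cell type with this connexin, was 174 to 941 CPM in immune control and 135 to 462 in immune stretched, against 115 to 264 in the stromal libraries, and its part was not tested. In stromal control *Tek* (means of 45.6 CPM in stromal and 8.83 in immune control) and *Plvap* (45.9 and 23.8) were largest and higher than in immune control. Every other gene of that list was higher in immune control, such as *Cdh5* (2.36 and 73.0) and *Cldn5* (7.92 and 106).

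**Figure D2:**
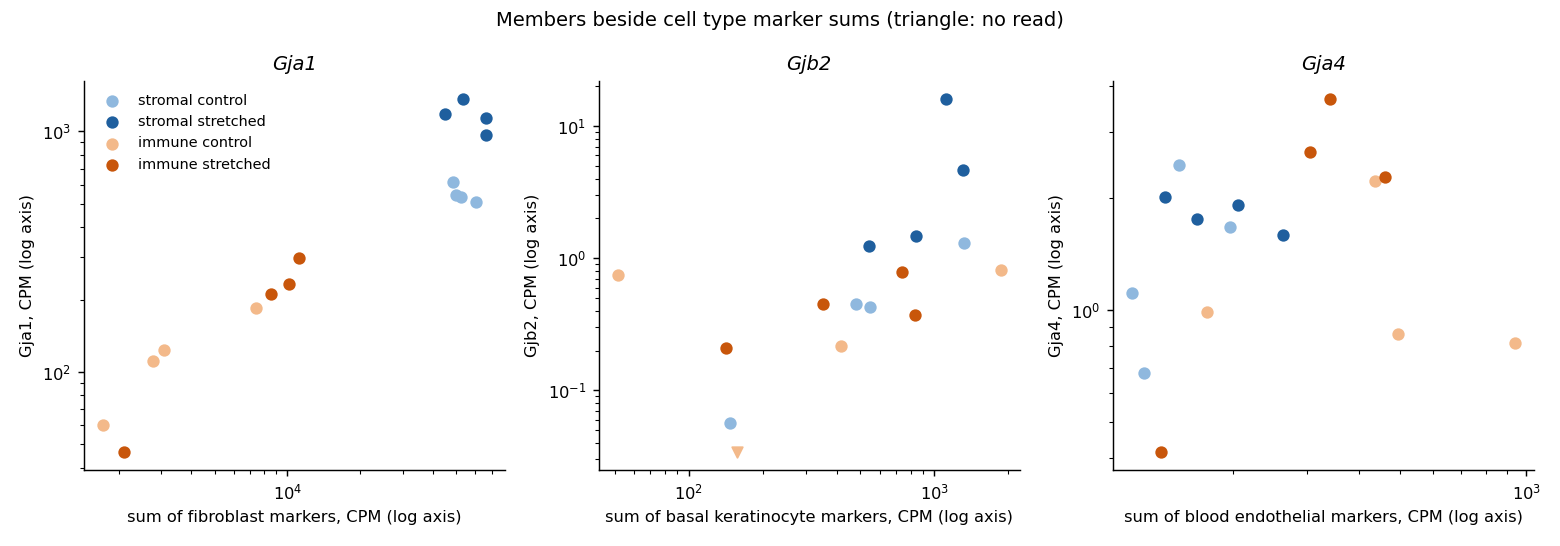
CPM of *Gja1*, *Gjb2* and *Gja4* in each library (vertical, log axis) against the summed CPM of fibroblast, basal keratinocyte and blood endothelial markers (horizontal, log axis), coloured by group, with triangles for no read. Stromal stretched points lie above stromal control points at like fibroblast sums for *Gja1*, and the highest *Gjb2* point is stromal stretched 8 at 16.1 CPM.

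The keratinocyte connexins *Gjb2* and *Gjb6* were rare in control stromal cells and had higher but very uneven values after stretching. *Gjb2* (chr14:57098600-57104702, minus strand) encodes Cx26, a connexin of proliferating and wounded epidermis. Its CPM was 1.29, 0.424, 0.451 and 0.0565 in stromal control 1 to 4 (1 to 17 reads) and 1.24, 4.63, 1.47 and 16.1 in stromal stretched 5 to 8 (27 to 475 reads). Stretched library 5 lay just under control 1, so the groups overlapped, and library 8 alone held most of the reads. The log2 fold change of 3.46 ± 0.95 did not pass the threshold and was 2.17 ± 0.78 without library 8.

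*Gjb6* (chr14:57123303-57133611, minus strand) encodes Cx30, the partner of Cx26 in epidermis and inner ear, and lies beside *Gjb2*. It was 0.608, 0.0530, 0 and 0.170 CPM in stromal control and 0.229, 0.890, 0.426 and 3.32 CPM in stromal stretched libraries, where library 8 was again highest. The library at 0 could have held up to 0.193 CPM by the limit that a count of 0 allows (3 reads). The log2 fold change was 2.64 ± 1.03, or 1.38 ± 0.93 without library 8, and did not pass the threshold.

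The keratinocyte and hair follicle marker sums of control and stretched stromal libraries overlapped. Hair follicle markers (13 genes) summed to 23.9 to 386 CPM in stromal control and 157 to 638 CPM in stromal stretched, with the highest value in library 8 and with 2 to 7 and 0 to 2 of the 13 at 0. Each of the 13 had a higher mean in stretched libraries. *Krt79* (92.8 CPM in control and 136 in stretched) and *Krt17* (71.9 and 169) made the largest contributions to the sums. Hair keratins were near 0 in control, as for *Krt35* (0.476 and 15.3), *Krt28* (0.448 and 9.31) and *Krt71* (0.0483 and 8.30). Suprabasal keratinocyte markers (12 genes) summed to 171 to 502 and 127 to 247 CPM, with 1 to 4 and 1 of them at 0. Each basal keratinocyte marker also had a higher mean in stretched stromal libraries. *Krt14* (456 CPM in control and 658 in stretched) made the largest contribution to that sum. Smaller ones included *Krt5* (34.2 and 72.3), *Col17a1* (3.77 and 14.7) and *Trp63* (10.1 and 22.2). *Gjb2* per 1000 basal keratinocyte marker CPM was 0.385 to 0.975 in control and 1.75 to 14.4 in stretched libraries, which did not overlap. Such a ratio mainly follows *Krt14*. *Gjb6* per 1000 of the same marker CPM was 0 to 1.15 in control and 0.422 to 2.98 in stretched libraries, which overlapped. Library 8 is also among those with many receptor reads, and without the 3 such libraries the log2 fold changes were 2.42 ± 0.87 for *Gjb2* and 1.48 ± 1.10 for *Gjb6*. The part of the keratinocyte or hair follicle content in the differences was not tested.

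In the immune fraction *Gjb2* reached 0.815 CPM at most, with 0 to 8 reads per library. *Gjb6* was 1.22, 3.46, 0 and 0 CPM in immune control 3 to 6 and 0.198, 0, 0 and 0.584 in immune stretched 1, 2, 7 and 8. The value of 3.46 came from 16 reads in immune control 4, the shallowest library and the one with most receptor reads. Neither gene passed the filter on low counts for the stretch comparison of immune cells.

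The vascular connexins *Gja4* and *Gja5* were scarce in both fractions. *Gja4* (chr4:127311421-127314039, minus strand) encodes Cx37 of arterial endothelium. It was 1.67, 1.11, 2.45 and 0.679 CPM in stromal control and 2.02, 1.91, 1.59 and 1.76 CPM in stromal stretched libraries, and the stretched values all lay inside the control range. It was 0.815, 0.865, 0.987 and 2.22 CPM in immune control and 2.27, 0.415, 3.69 and 2.65 CPM in immune stretched libraries, from 2 to 57 reads. The log2 fold changes with stretching were 0.32 ± 0.41 in stromal and 0.69 ± 0.63 in immune cells.

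*Gja5* (chr3:96904693-97077416, plus strand) encodes Cx40 of arterial endothelium and atrial muscle. It had between 0 and 26 reads per library, reached 0.712 CPM in the stromal libraries, and was 2.45, 2.59, 0 and 0.278 CPM in immune control 3 to 6 and 0.0988, 0, 0.713 and 1.38 CPM in immune stretched 1, 2, 7 and 8. *Gja5* passed the filter on low counts in the fit over all 16 libraries, not in those of 2 groups. Arterial endothelial markers (12 genes) summed to 187 to 469 CPM in stromal control, 239.9 to 427 in stromal stretched, 97.2 to 244 in immune control and 58.5 to 208 in immune stretched. *Fbln5* (means of 164 CPM in stromal and 30.8 in immune control), *Mgp* (105 and 28.9) and *Edn1* (28.3 and 6.43) were higher in stromal control. Every other gene of the list had a higher mean in immune control, such as *Bmx* (0.366 and 9.27) and *Dll4* (1.25 and 11.2). The sum is thus no measure of which fraction held more arterial endothelium.

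*Gjc1* and *Panx1* were steadily detected in stromal cells, with overlapping groups. *Gjc1* (chr11:102799579-102819700, minus strand) encodes Cx45 of smooth muscle and early vessels. It was 36.3, 34.2, 35.7 and 45.1 CPM in stromal control and 39.5, 43.7, 23.8 and 29.9 CPM in stromal stretched libraries, where 7 and 8 were lowest. Its log2 fold change was -0.14 ± 0.21, and 0.12 ± 0.19 without the libraries with many receptor reads. Relative to mural cell markers, *Gjc1* was 128 to 262 per 1000 marker CPM in control and 77.8 to 122 in stretched libraries, where the marker sum itself was higher. Of the genes in that sum, *Pdgfrb* and *Des* had the largest means and rose by the most CPM.

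*Panx1* (chr9:15002128-15045478, minus strand) encodes a widely expressed ATP-releasing channel. It was 46.9, 45.2, 34.3 and 58.2 CPM in stromal control and 56.7, 43.0, 51.0 and 54.5 CPM in stromal stretched libraries. The log2 fold change was 0.16 ± 0.19, so that values near no change and moderate increases are both within its error. In immune cells it was 23.4, 12.3, 4.93 and 21.1 CPM in control and 23.5, 13.3, 33.5 and 38.4 CPM in stretched libraries, with a log2 fold change of 0.61 ± 0.45 and overlapping groups. *Gjc1* was 17.7, 9.51, 4.19 and 8.06 CPM in immune control and 13.6, 4.77, 12.2 and 21.3 CPM in immune stretched libraries, with a log2 fold change of 0.17 ± 0.50.

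**Figure D3:**
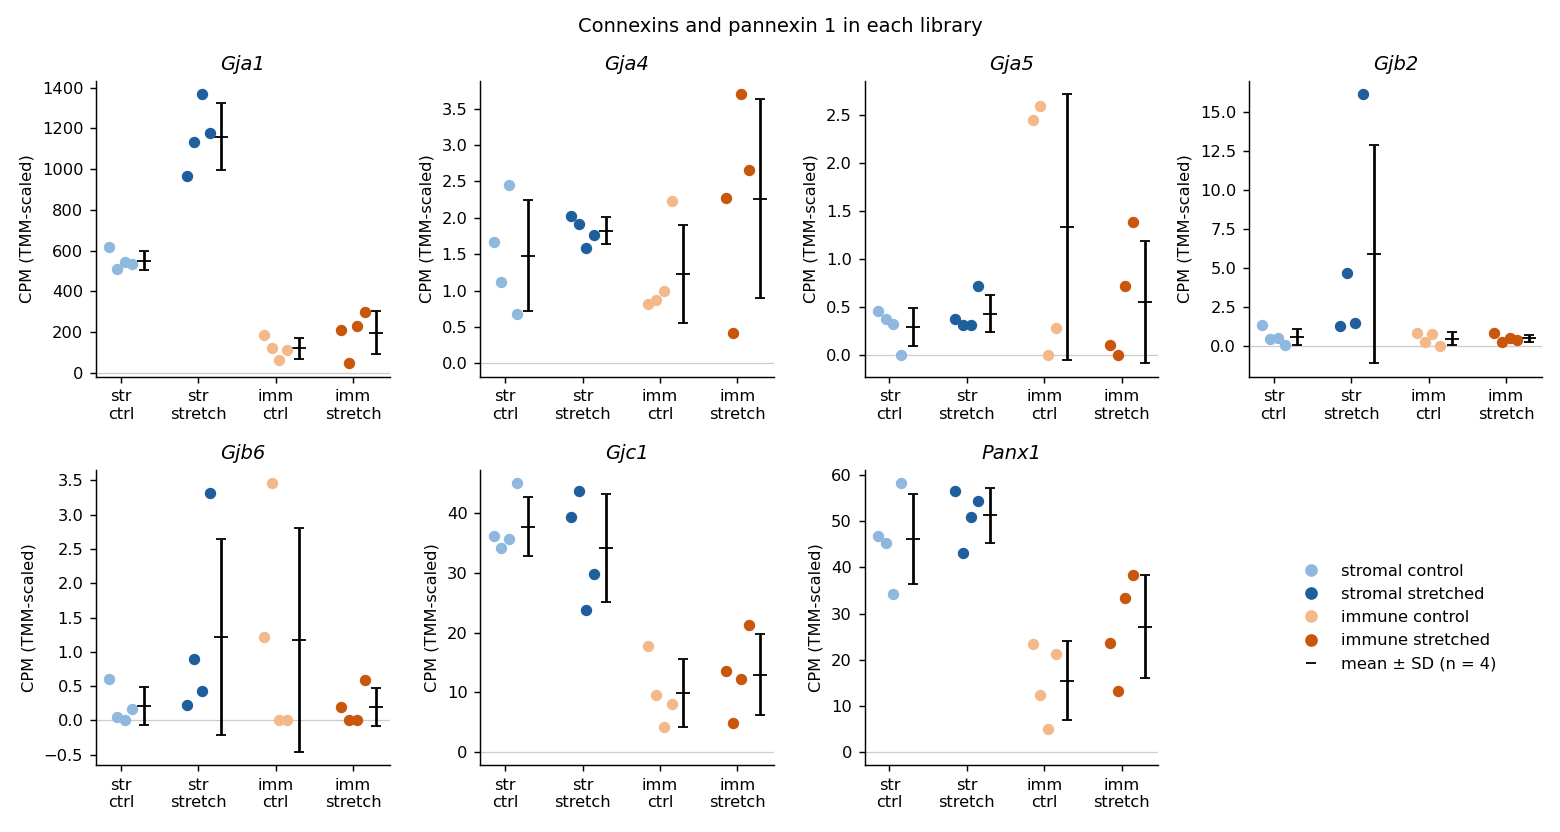
CPM of each of the 7 genes in each library (points, in replicate-number order within a group), with the group mean ± SD (n = 4) in black; str is stromal, imm is immune, ctrl is control. *Gja1* in stromal cells is the panel with separated treatment groups, at 507 to 617 against 965 to 1366 CPM.

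In the stretch comparison of immune cells 0 of 4 tested members passed the adjusted threshold by edgeR's quasi-likelihood test, 0 had an unadjusted p under 0.05, and DESeq2 and limma-voom called 0 as well. The background was 0% of 14183 genes called. The treatment groups of immune libraries overlapped for each of the 7 members, while 11.5% of tested genes had groups that did not overlap.

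The difference of the stretch effects between the fractions (immune minus stromal) was fitted over all 16 libraries. It was -0.39 ± 0.59 for *Gja1*, -3.26 ± 1.46 for *Gjb2*, -4.93 ± 1.92 for *Gjb6*, 0.56 ± 0.81 for *Gja4*, -1.73 ± 1.48 for *Gja5*, 0.53 ± 0.56 for *Gjc1* and 0.64 ± 0.53 for *Panx1* on the log2 scale. By edgeR 0 of 7 members passed, with 0% of 18295 genes called, 2 members (*Gjb2* and *Gjb6*) at an unadjusted p under 0.05, and 0 called by DESeq2 or limma-voom. The stromal *Gja1* difference is therefore not shown to be larger than the immune one. Without the libraries with many receptor reads, 0 members had an unadjusted p under 0.05 by edgeR, and the same held without stromal stretched 8 alone. Of the fits that left out 1 library, the one without stromal stretched 8 gave the smallest difference for *Gjb2*. The one without immune control 4 gave the smallest for *Gjb6* (-3.31).

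The most expressed members were lower in immune than in stromal cells. In control skin, the log2 difference (immune against stromal) was -2.07 ± 0.33 for *Gja1*, -1.81 ± 0.37 for *Gjc1* and -1.45 ± 0.39 for *Panx1*, and the libraries of the fractions did not overlap for these 3 genes. They were 3 of 4 tested members past the threshold, where 49.4% of 15142 genes were called and 22.8% were called lower. *Gja4* was level between the fractions within its error (-0.12 ± 0.59).

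In stretched skin the differences were -2.70 ± 0.49 for *Gja1*, -3.75 ± 0.89 for *Gjb2*, -1.51 ± 0.38 for *Gjc1* and -1.05 ± 0.30 for *Panx1*. These were 4 of 6 tested members past the threshold and all lower, where 49% of 17116 genes were called and 25.1% were called lower. *Gjb6* (-2.46 ± 1.06) and *Gja4* (0.24 ± 0.48) did not pass. Without the libraries with many receptor reads, *Panx1* was -0.99 ± 0.37 and no longer passed. Of the 2 fraction comparisons and the stretch comparisons, those that share a group share its libraries.

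**Figure D4:**
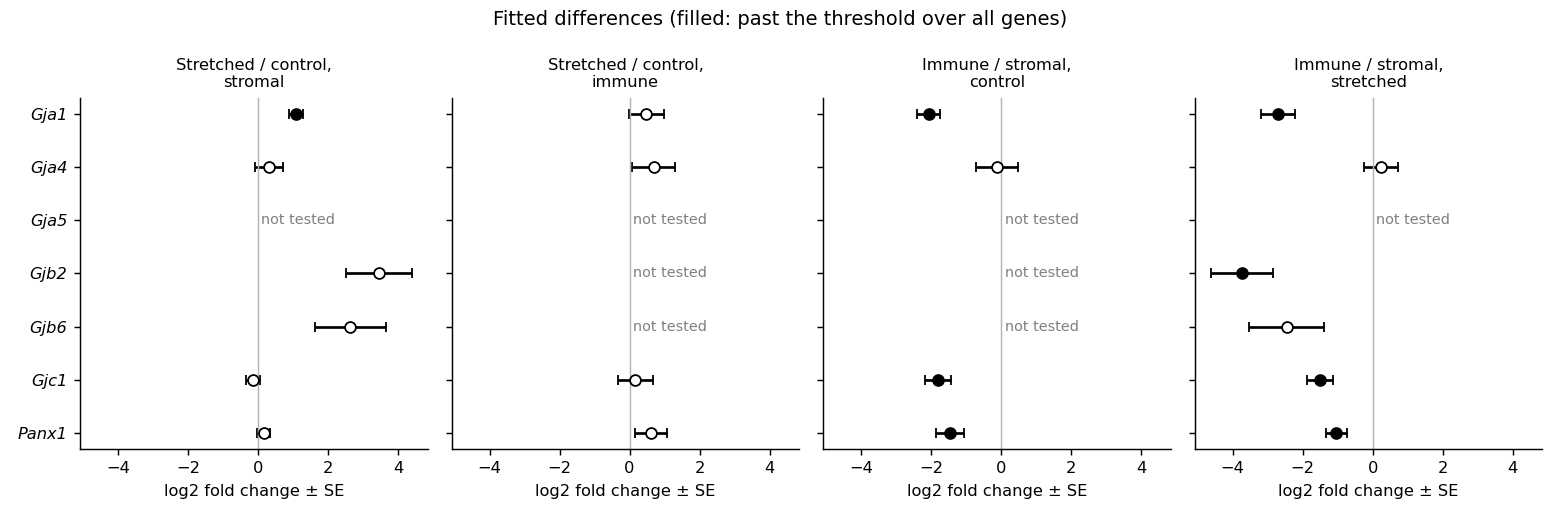
Fitted log2 fold change ± SE of each member in 4 comparisons, filled where the adjusted p over all genes was under 0.05; members that did not pass the filter on low counts are marked as not tested. *Gja1* is the filled point at 1.09 in the stromal stretch panel, and filled points of both fraction panels lie below 0.

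Of the other 16 connexins and pannexins, 7 could be tested for stretch in stromal cells. None passed by edgeR, 0 had an unadjusted p under 0.05, DESeq2 called 0 and limma-voom called 0. Over all 16074 genes, edgeR called 4.98% and gave 26.8% an unadjusted p under 0.05, while DESeq2 called 2312 and limma-voom 3599. By limma-voom 3 of the 7 had an unadjusted p under 0.05, and without a filter edgeR called 1 of 16. *Panx3*, a pannexin of skin and cartilage, was 6.12 ± 4.92 CPM in stromal and 0.289 ± 0.337 CPM in immune stretched libraries (log2 difference -4.21 ± 0.90, edgeR adjusted p = 0.00401), and this call was kept in all 8 fits that left out 1 library.

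The wider pathway was followed in lists of connexin partners and turnover genes, other ATP-permeable channels, nucleotide and adenosine receptors and ectonucleotidases, which with the other connexins and pannexins come to 90 genes. In stretched stromal cells 3 of the 67 tested passed (2 higher, 1 lower, 4.48%), close to the 4.98% of all genes. *Enpp1*, an enzyme that splits extracellular ATP, rose from 3.22 ± 0.867 to 8.17 ± 0.814 CPM (log2 fold change 1.36 ± 0.26, edgeR adjusted p = 0.0424). *Ano6*, a scramblase and ion channel, rose from 88.4 ± 10.04 to 141 ± 15.3 CPM (0.69 ± 0.17, adjusted p = 0.0467). *Erp29*, an endoplasmic reticulum chaperone that helps Cx43 stay monomeric until it leaves that compartment, fell from 115 ± 14.5 to 53.9 ± 18.3 CPM (-1.09 ± 0.24, adjusted p = 0.0431).

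The libraries of the treatments did not overlap for any of these 3 genes. Of the 8 fits that left out 1 stromal library, 2 kept *Enpp1*, 1 kept *Ano6* and 2 kept *Erp29* past the threshold. Of 10 fits with another setting, 6 kept *Enpp1*, 5 kept *Ano6* and 6 kept *Erp29*. Without the libraries with many receptor reads, 0 of the listed genes passed, and 0 genes were called at all. With length and GC offsets or with all 16 libraries in 1 fit, 0 of the listed genes passed either. The direction of these 3 genes was the same in every fit. The median log2 fold change was 0.12 for 28 tested partners, 0.12 for 12 tested channels, 0.48 for 10 tested receptors and 0.45 for 10 tested ectonucleotidases, against 0.012 over all genes.

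Other partners had values that did not pass. *Csnk1d*, the casein kinase that phosphorylates Cx43, was 125 ± 8.58 CPM in control and 182 ± 4.37 in stretched stromal libraries (0.55 ± 0.15, edgeR adjusted p = 0.0534). *Tubb5*, a tubulin, was 226 ± 73.4 and 109 ± 44.3 CPM (-1.05 ± 0.32, adjusted p = 0.0728).

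In stretched immune cells 0 of 66 tested pathway genes passed by edgeR, with 12 at an unadjusted p under 0.05, 4 called by DESeq2 and 6 by limma-voom. Over all 14183 genes, 17.4% had an unadjusted p under 0.05, and DESeq2 called 781 and limma-voom 888, so nothing particular to these genes is read from the counts. The smallest p belonged to *Adora2b*, an adenosine receptor, at 42.5 ± 16.3 CPM in control and 104 ± 7.86 in stretched libraries (1.13 ± 0.27, edgeR adjusted p = 0.144). The autophagy receptor *Sqstm1* was 531 ± 168 and 1409.5 ± 163 CPM (1.24 ± 0.31, adjusted p = 0.153), and *Ctnnb1*, which encodes beta-catenin, was 37.3 ± 12.5 and 81.1 ± 24.5 CPM (0.94 ± 0.27, adjusted p = 0.169). For each of these 3 genes the treatment groups did not overlap. For the difference of the stretch effects 0 of 75 tested genes passed by edgeR, 15 had an unadjusted p under 0.05, DESeq2 called 8 and limma-voom 7. Over all 18295 genes, 23.1% had an unadjusted p under 0.05, and DESeq2 called 1625 and limma-voom 1453. The smallest p in the lists was that of *Enpp1* (-2.72 ± 0.63, edgeR adjusted p = 0.0712).

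Between the fractions, 43 of 69 tested pathway genes passed in control skin (20 higher and 23 lower in immune cells, 62.3%) and 44 of 71 in stretched skin (16 higher and 28 lower, 62%). Over all genes, 49.4% were called in control skin (4027 higher and 3457 lower of 15142) and 49% in stretched skin (4091 higher and 4289 lower of 17116), and the lists were not tested against these shares. Nucleotide and adenosine receptors were the list with most genes higher in immune cells, 9 of 13 tested in control and 10 of 14 in stretched skin, with medians of 2.38 and 3.0 on the log2 scale against 0.085 and -0.063 over all genes. In control skin *P2ry10* was 69.5 ± 23.1 CPM in immune and 0.222 ± 0.165 in stromal cells (8.29 ± 0.55, edgeR adjusted p = 3.37e-06). *P2ry6*, a UDP receptor, was 41.6 ± 24.5 and 0.481 ± 0.239 CPM (6.54 ± 0.56, adjusted p = 9.16e-06), and *Adora3* was 21.3 ± 13.7 and 0.103 ± 0.124 CPM (7.60 ± 0.76, adjusted p = 2.31e-05).

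*P2rx7*, an ATP-gated channel that works with pannexin channels, was 18.95 ± 8.75 CPM in immune and 3.99 ± 1.66 in stromal control cells (2.38 ± 0.46, edgeR adjusted p = 0.00157). In stretched skin it was 19.2 ± 9.87 and 8.36 ± 2.90 CPM (1.07 ± 0.39, adjusted p = 0.0452), and that call was kept in 3 of the 8 fits that left out 1 library. *P2ry2*, an ATP and UTP receptor, was lower in immune control cells (4.98 ± 2.17 against 12.3 ± 3.09 CPM, -1.20 ± 0.40, adjusted p = 0.0275), and that call was kept in 5 of 8 such fits.

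In control skin 5 connexin partners were higher and 11 lower of 28 tested, and 3 ectonucleotidases were higher and 6 lower of 11 tested. In stretched skin these counts were 2 and 14 of 29 partners and 1 and 7 of 10 ectonucleotidases, beside the 22.8% and 25.1% of all genes that were called lower in control and stretched skin. *Dbn1*, the actin-binding drebrin that holds Cx43 at the membrane, was 9.22 ± 3.30 CPM in immune and 216 ± 59.97 in stromal control cells (-4.42 ± 0.34, edgeR adjusted p = 5.93e-06). *Nedd4*, a ubiquitin ligase that acts on Cx43, was 62.03 ± 24.03 and 365 ± 23.7 CPM (-2.42 ± 0.31, adjusted p = 0.000108).

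Among the enzymes, *Entpd2* was 9.33 ± 2.29 CPM in immune and 138 ± 43.9 in stromal control cells (-3.75 ± 0.31, edgeR adjusted p = 7.57e-06), and *Dpp4*, which binds adenosine deaminase, was 22.01 ± 3.96 and 259.5 ± 194 CPM (-3.43 ± 0.46, adjusted p = 0.000159). *Entpd1*, the ATP-splitting CD39 of leukocytes, was higher in immune cells at 84.2 ± 63.3 against 30.2 ± 5.04 CPM (1.60 ± 0.43, adjusted p = 0.00982). Of the other channels through which ATP or osmolytes pass, 3 were higher and 5 lower in immune cells of 12 tested in control skin, and 3 and 4 of 12 in stretched skin, where 49.4% and 49% of all genes were called in either direction. *Slco2a1*, a prostaglandin transporter that also forms an ATP-releasing anion channel, was 23.3 ± 12.9 CPM in immune and 122 ± 49.1 in stromal control cells (-2.20 ± 0.47, adjusted p = 0.00285). *Lrrc8c*, a subunit of volume-regulated anion channels, was 20.97 ± 3.83 and 9.54 ± 5.59 CPM (1.28 ± 0.38, adjusted p = 0.0177), a call kept in 5 of the 8 fits that left out 1 library. The calls of *Dbn1*, *Nedd4*, *Entpd2*, *Dpp4*, *P2ry10* and *P2ry6* in control skin were kept in all 18 alternative fits, 10 with another setting and 8 without 1 library.

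For each member the 3 genes with the most similar pattern over the 16 libraries were found by the root mean square difference of centred log2 CPM, among 8919 genes of at least 10 CPM on average. Those nearest to *Gja1* were *Dag1* (0.25), *Ltbp4* (0.27) and *Twsg1* (0.28), which encode dystroglycan, a TGF-beta binding matrix protein and a BMP-binding protein. *Ltbp4* was 118 ± 19.2 CPM in stromal control, 281 ± 76.3 in stromal stretched, 34.1 ± 16.7 in immune control and 53.4 ± 26.0 in immune stretched. *Gjc1* lay nearest to *Bod1* (0.26), *Jcad* and *Rgmb* (both 0.29). *Panx1* lay nearest to *Adk* (0.28), which encodes adenosine kinase, then to *Tnfaip1* (0.28) and *Gem* (0.29).

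*Gjb2* lay nearest to *Cldn1* and *Jup* (both 1.06) and *Sdc1* (1.09), epithelial junction and surface genes, and *Gjb6* to *Jag1* (0.95), *Met* (1.05) and *Sema3a* (1.06). *Gja4* lay nearest to *Soga1* (0.36), *Rbm4b* and *Synj2* (both 0.41), and *Gja5* to *Trim37* and *Itga1* (both 0.73) and *Dock9* (0.75). The distances of *Gjb2*, *Gjb6* and *Gja5* were larger, and these genes had the fewest reads together with *Gja4*.

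**Figure D5:**
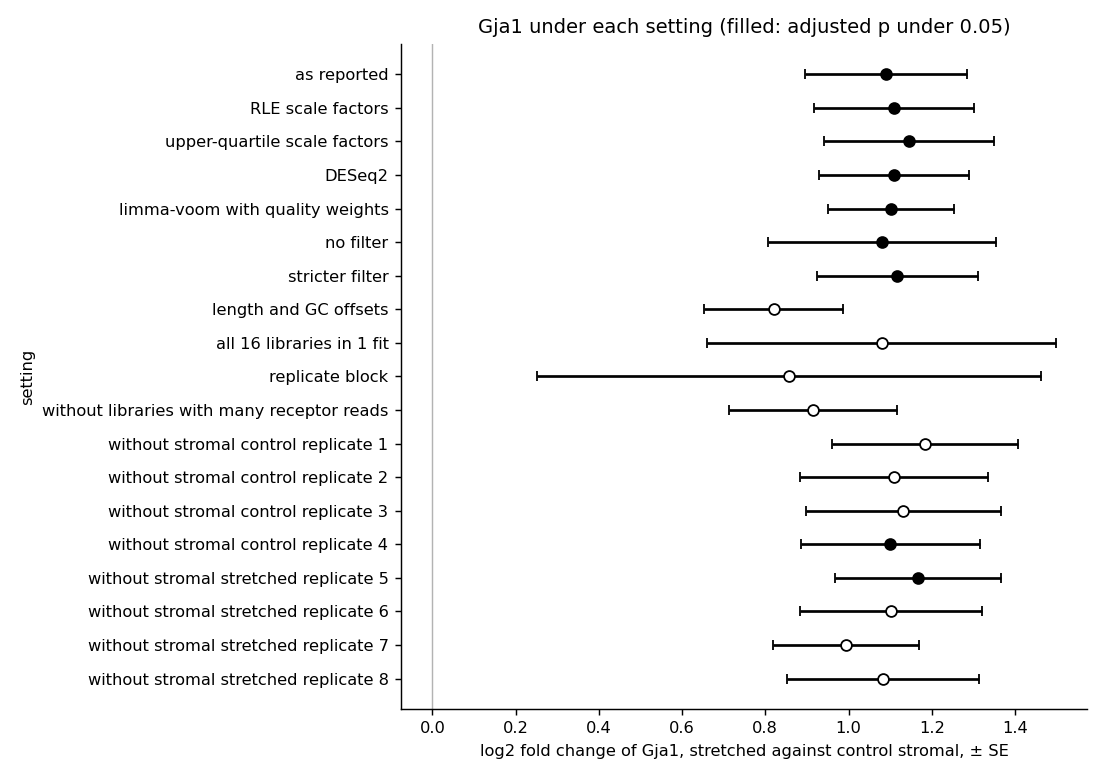
Log2 fold change ± SE of *Gja1* between stretched and control stromal libraries under each alternative setting and without each library, filled where the adjusted p was under 0.05. The values lie between 0.82 and 1.18, and the fits that left out stromal control 4 or stromal stretched 5 are the filled ones among those that dropped 1 library.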

How the data were processed

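The authors deposited 1 table of raw read counts, with Ensembl genes against 16 bulk libraries of sorted mouse skin cells. The labels' protocols name the SMART-Seq mRNA LP kit for cDNA and Nextera XT for library construction. FastQC 0.11.9, STAR and the build mm10 appear in the submitters' processing notes. How reads were assigned to genes (tool, strand, annotation release, multiple mapping) is not given in the sources used here. GENCODE M21 (GRCm38) gave symbols, positions and lengths for 55394 of 55487 IDs. Where several IDs shared a symbol (107 symbols), the ID with most reads kept it. Columns were matched to samples by label, and 0 were left over. No pair of libraries within a group agreed within sampling noise (chi-square per degree of freedom 25.1 at the lowest).

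Low-count genes were removed by filterByExpr (at least 10 reads, 15 in total) and each comparison was tested with edgeR 4.0.16 under R 4.3.3, using TMM scaling and the quasi-likelihood test, with no covariate, on the libraries of the groups compared (all 16 for the difference of stretch effects). A gene was called where its p, adjusted by Benjamini-Hochberg over all tested genes, was under 0.05. Standard errors were derived from the F statistic. Scripts were tested on simulated counts. DESeq2 1.42.0, limma-voom 3.58.1, other scale factors and filters, length and GC offsets and left-out libraries were alternatives. The labels mention no molecular identifiers, so PCR copies are not independent and the 3-read limits cover counting error only.

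The members, gene lists and tests were chosen with earlier results of these data known. All members are reported. Of each list, genes past the threshold were named by smallest p (up to 6), or up to 3 that did not pass, and the text uses a subset. Genes most like a member were taken by smallest distance of centred log2 CPM (prior count 2). Some genes of these lists are not reported here.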

Additional observations from a re-analysis of the deposited data

Results flagged for a closer look

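A value far from the other libraries of its group was found for *Gja4* in immune control 6, at 2.22 CPM (16 reads), where the gap to the nearest of the other 3 libraries was 0.878 of the range. The same held for *Gja5* in stromal stretched 8, at 0.712 CPM (21 reads, 0.858 of the range). Chance marks about 1 in 20 groups in this way, 7 genes in 4 groups were looked at, and both values rest on few reads.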

How the results depend on the processing

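Over 27 member fold changes, 518 alternative values were computed: 481 kept direction and side of the threshold, 14 fell below it, 12 newly passed and 11 reversed. The cause of these changes was not tested. *Gja1* in stretched stromal cells (1.09) was no longer past the threshold with length and GC offsets (0.82, edgeR adjusted p = 0.0604), all 16 libraries in 1 fit (1.08, 0.217) or without the libraries with many receptor reads (0.92, 0.267). Leaving out 1 library gave 0.99 to 1.18 and kept the call without stromal control 4 or stromal stretched 5, and lost it without stromal control 1, 2 or 3 or stromal stretched 6, 7 or 8. The members called there (1) became 2 with DESeq2, 3 with limma-voom, 3 without a filter, 0 with length and GC offsets, 0 with all 16 libraries, 0 without the receptor-read libraries and 0 to 2 without 1 library. Genes called there in all (800) became 2312 with DESeq2, 3599 with limma-voom, 2115 without a filter, 1378 with a stricter filter, 4 with length and GC offsets, 0 with all 16 libraries or without the receptor-read libraries, and 0 to 1589 without 1 library. Without a filter, 58.3% of calls were higher, against 41.1%. For stretch in immune cells (0) the counts were 781, 888 and, with all 16 libraries, 667. For the difference of stretch effects (0), DESeq2 called 1625, limma-voom 1453 and the fit without a filter 3924.

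Stromal and immune libraries with the same title number were little alike in their deviations from the group means (correlations from -0.131 to 0.144, 3 of 8 pairs over 0.1, 0 of 16 libraries nearest to their own number). With 4 libraries per group, in different cell fractions, these values cannot show whether such libraries are related. The labels do not say, and the numbers were not used as pairs in the main fits. With the number as a replicate block, *Gja1* in stretched stromal cells was 0.86 (adjusted p = 0.602), 0 members and 0 genes were called there, and 1 of 3 members stayed called between the fractions in control skin, where 3642 of 7484 genes were called.

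Reversed values were found for members that did not pass: *Gja4* (-0.76 with the block), *Gjc1* (0.12 without the receptor-read libraries) and *Panx1* (-0.052 with length and GC offsets, -0.042 with the block) for stretch in stromal cells, *Gjc1* in immune cells (-0.18 to 0.57 without 1 library), *Gja1* for the difference of stretch effects (0.045 with length and GC offsets), *Gja4* for that difference (-0.0068 to 1.08 without 1 library), and *Gja4* between the fractions in control (0.11 with length and GC offsets, -0.62 to 0.19 without 1 library) and stretched skin (-0.080 to 0.59). RLE and upper-quartile scaling moved the median of all genes in the difference of stretch effects from 0.028 to -0.19 and -0.24. *Gja5*, *Gjb2* and *Gjb6* are limited by depth: 3 reads are worth 0.102 to 0.740 CPM.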
